A study of Mus musculus with 4 samples.

Results

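The genes described here are the matrix metalloproteinases (*Mmp*), their tissue inhibitors (*Timp*), the secreted ADAMTS proteases (*Adamts*) and the ADAMTS-like proteins (*Adamtsl*) of the embryonic mouse larynx. They were taken by gene symbol alone, without reference to their values, which gave 51 of the 46983 genes listed in the deposited tables: 23 *Mmp*, 4 *Timp*, 19 *Adamts* and 5 *Adamtsl* genes. Larynx (vocal fold) tissue was collected at E10.5, from embryos of 32 to 35 somites, and the RNA of 3 larynxes was pooled for each library. There were 2 pools from *Shh*-/- embryos and 2 pools from Swiss Webster wild-type (WT) embryos. The mutant carries the *Shh*tm1amc null allele on a Swiss Webster background. The sample labels write these pools as Shh+/-, whereas the series design and the methods give *Shh*-/-, and the latter name is used here. The question put to the RNA-seq was which genes of the early larynx depend on Hedgehog signaling.

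Matrix metalloproteinases are zinc enzymes that are made as inactive proenzymes and cut collagens, laminins and other matrix proteins once their propeptide is removed. TIMP proteins block the active site of these enzymes, and TIMP2 in addition helps to bring proMMP2 to the membrane-bound MMP14, which activates it. ADAMTS proteases cut hyaluronan-binding proteoglycans such as versican, trim procollagens or act on fibrillin-rich microfibrils, depending on the member, while the ADAMTS-like proteins resemble their ancillary domains and have no protease domain. In the embryo these genes are known for remodeling the matrix around epithelia, vessels and migrating cells.

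Levels are given as TPM, transcript abundance scaled to gene length and library depth, and differences as *Shh*-/- minus WT on the scale of log2(TPM + 1), which understates the difference of genes with low TPM. Depth, derived from the ratio of coverage to FPKM with reads of 75 nt, was 18300000 and 41700000 aligned reads for the *Shh*-/- pools, against 37900000 and 39600000 for the WT pools. The Hedgehog target *Ptch1* separated the libraries as labeled, with 12.9 and 13.8 TPM in the mutants against 57.8 and 55.1 TPM in WT (limma adjusted p = 0.0319). *Shh* RNA itself was at 10.4 and 10.8 TPM against 23.7 and 42.1 TPM. Markers of the foregut epithelium were present in every library, among them *Epcam* at 86.4 to 123.4 TPM, and *Nkx2-1* was lower in both *Shh*-/- pools (6.16 and 3.61 TPM) than in both WT pools (15.9 and 17.9 TPM).

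Of the 51 genes, 31 had a mean of at least 1 TPM over the 4 libraries and entered the test, namely 10 *Mmp*, 3 *Timp*, 15 *Adamts* and 3 *Adamtsl* genes. Of the 20 that did not, 9 were listed at 0 in all 4 libraries and 4 more never exceeded 0.1 TPM. The most abundant transcripts encoded the gelatinase MMP2 and the membrane protease MMP14, which together made up 67.5 and 69.1% of all *Mmp* TPM in the *Shh*-/- pools and 69.2% in each WT pool. After them came *Timp2*, *Timp3*, *Adamts10*, *Mmp11*, *Adamts1*, *Adamts9* and *Timp1*. The plot of levels shows that the lowest tested *Mmp* genes, *Mmp9* and *Mmp24*, lay near 0 in WT alone.

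**Figure D1:**
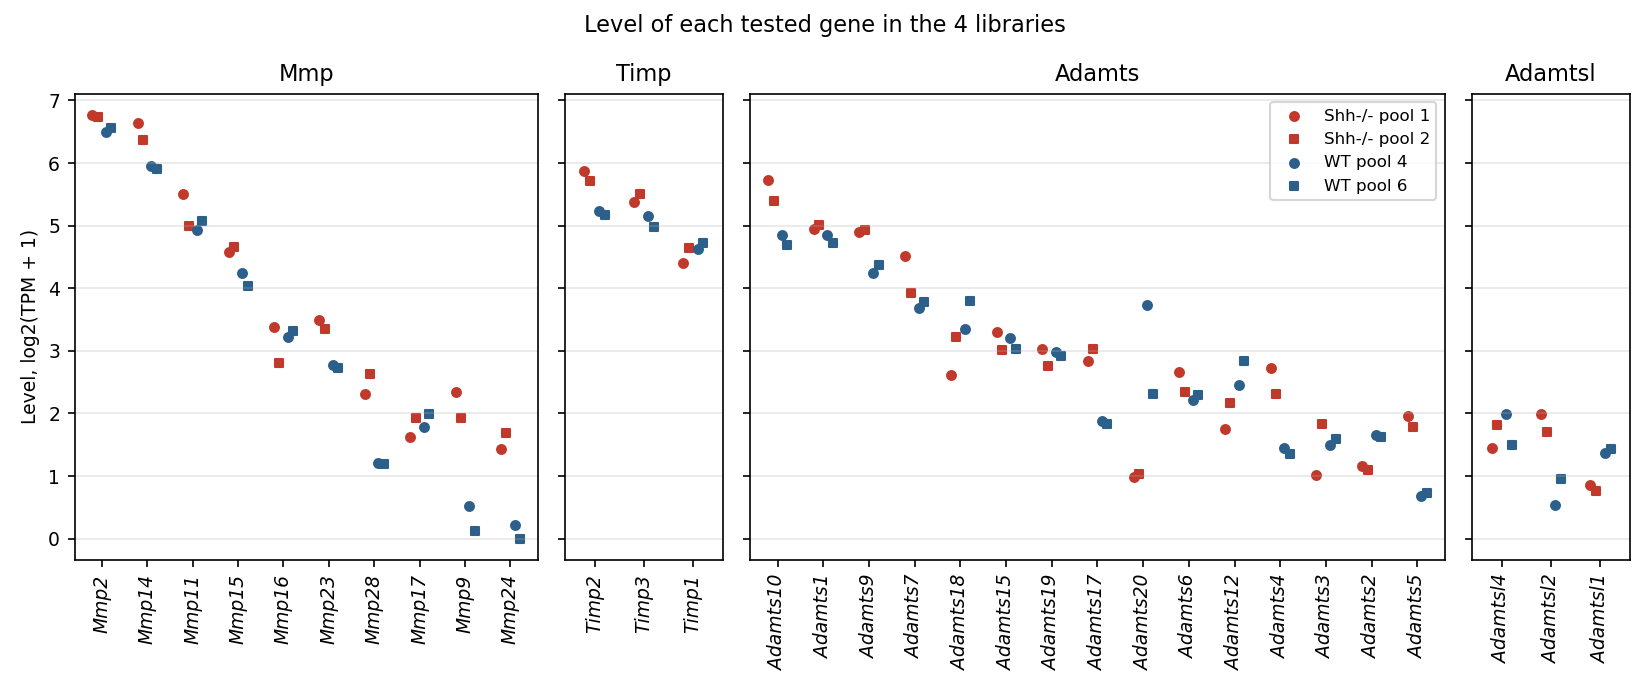
Level of each tested gene, log2(TPM + 1) on the vertical axis, in the 2 *Shh*-/- pools (red) and the 2 WT pools (blue), by family and in order of mean TPM. *Mmp2* and *Mmp14* lead, *Mmp9*, *Mmp24*, *Mmp28*, *Adamts17* and *Adamts5* have both *Shh*-/- pools well above both WT pools, and *Adamts20* shows the reverse with WT pools that differ from each other.

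Most of the genes at or near 0 lay in one genomic neighborhood. A cluster of 10 *Mmp* genes on chromosome 9 of mm10, from 7272514 to 7699585, holds *Mmp13*, *Mmp12*, *Mmp1b*, *Mmp3*, *Mmp1a*, *Mmp10*, *Mmp8*, *Mmp27*, *Mmp20* and *Mmp7*, the collagenases, stromelysins, matrilysin, macrophage elastase and enamelysin. Among the 10 genes, 8 were listed at 0 in every library. The highest value in the cluster was 0.0982 TPM, for *Mmp8* in the second *Shh*-/- pool, which corresponds to about 5 reads. A listed 0 can be a failed estimate as well as absent RNA, so these values were not compared between genotypes.

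Sequence before the start sites is given because this cluster and the transcribed members that had an annotated promoter window differed in it. The motifs were chosen after values were seen, so the counts describe these windows and do not test a difference. Counts are of genes, and the shares beside them are of windows. RefSeq promoter windows (GRCm38.p6, the assembly of mm10) were found for 36 of the 51 genes, including all 10 cluster genes and 19 of the 31 tested genes. The 250 bases before each start site were searched. Tested genes without a window included *Mmp2*, *Mmp9*, *Adamts4*, *Adamts5* and *Adamts10*, so the counts do not cover them. The letters of an AP-1 site (TGANTCA, where N is any base, either strand) were present for 8 of the 10 cluster genes and 0 of the 19 tested genes, against 6.75% of all 32851 windows in the table. A TATA element (TATAAA, gene strand) was present for 7 of the 10 cluster genes and 2 of the 19 tested genes, against 7.59% of all windows. An Sp1 GC box (GGGCGG, either strand) showed the opposite distribution, with 0 of 10 cluster genes and 16 of 19 tested genes (80.0% of their 20 windows), against 32.7% of all windows. The 7-base core of a GLI site (ACCACCC, either strand) occurred for 1 of the 19 tested genes, *Adamtsl4*, and for 0 of the cluster genes, against 3.92% of all windows. GC content was 37.2 to 53.2% in the cluster windows (median 40.2%) and 54.4 to 79.2% in those of the tested genes (median 64.0%). The median of all windows was 52.4%. Of the 7 untested members outside the cluster with a window, 0 held the AP-1 letters and 4 a GC box, and GC content was 53.6 to 80.0% (median 66.0%). The cluster genes are neighbors with related sequences, so they do not count as separate cases.

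The 100 bases that precede the start site are shown for 4 cluster genes, listed at 0 in every library except *Mmp13* (0.0394 TPM in WT pool 4), and for 3 transcribed members, 5′ to 3′ on the strand of the gene, with AP-1, TATA and GC box letters in capitals. Positions follow RefSeq starts, and the *Adamts20* start lies within the span that the deposited table gives that gene. They show where these letters lie and how the base composition of the groups differs.
Mmp13, chr9:7272414-7272513, plus strand: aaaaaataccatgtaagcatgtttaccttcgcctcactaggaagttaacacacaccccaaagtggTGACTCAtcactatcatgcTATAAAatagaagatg
Mmp3, chr9:7445722-7445821, plus strand: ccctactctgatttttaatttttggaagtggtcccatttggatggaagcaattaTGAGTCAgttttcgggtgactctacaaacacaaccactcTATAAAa
Mmp1a, chr9:7464041-7464140, plus strand: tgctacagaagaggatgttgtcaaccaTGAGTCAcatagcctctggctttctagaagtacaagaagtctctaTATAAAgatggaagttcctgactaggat
Mmp10, chr9:7502242-7502341, plus strand: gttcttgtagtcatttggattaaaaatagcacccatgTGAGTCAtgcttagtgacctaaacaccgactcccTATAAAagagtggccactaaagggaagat
Mmp14, chr14:54431498-54431597, plus strand: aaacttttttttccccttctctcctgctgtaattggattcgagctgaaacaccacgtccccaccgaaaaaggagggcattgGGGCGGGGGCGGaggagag
Timp2, chr11:118355412-118355511, minus strand: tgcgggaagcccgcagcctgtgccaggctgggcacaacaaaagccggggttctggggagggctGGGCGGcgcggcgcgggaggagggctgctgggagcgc
Adamts20, chr15:94404351-94404450, minus strand: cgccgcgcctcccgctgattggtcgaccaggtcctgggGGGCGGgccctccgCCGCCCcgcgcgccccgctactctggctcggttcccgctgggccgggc

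In the cluster genes shown, the AP-1 letters began 35 to 73 bases and the TATA letters 7 to 29 bases before the annotated start. *Mmp14* has 2 adjoining GC boxes that began 19 and 13 bases before its start, and *Adamts20* has 2, one on each strand, at 62 and 48 bases. A match of letters is a description of the sequence and does not show that a factor binds there.

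**Figure D2:**
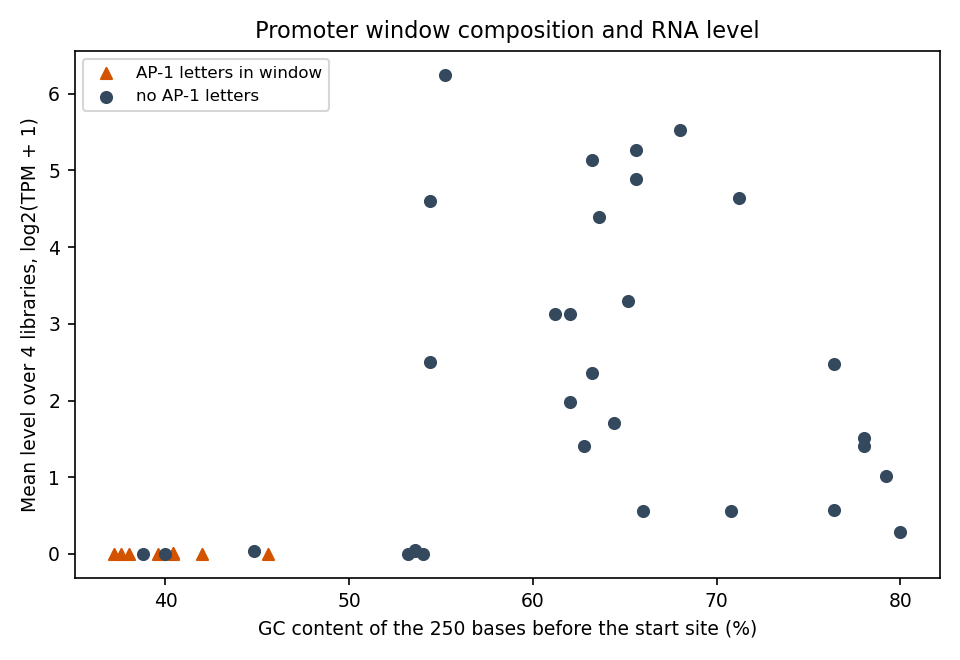
GC content (%) of the 250 bases before each annotated start site, on the horizontal axis, and mean level over the 4 libraries, log2(TPM + 1), on the vertical axis; each point is 1 promoter window of a member and triangles mark windows with the AP-1 letters. The windows with AP-1 letters all lie at low GC content and at levels near 0, and the windows of the tested genes lie at 54.4% GC or more, as do 4 of the 7 windows of untested members outside the cluster.

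Summed over each family, *Mmp* RNA was at 306.0 and 271.6 TPM in the mutants against 217.5 and 220.2 TPM in WT. The *Timp* sum was higher as well, with 118.1 and 119.8 TPM against 94.7 and 91.2 TPM, and the *Adamts* sum was at 181.0 and 164.9 TPM against 140.2 and 132.6 TPM. *Adamtsl* RNA was scarce, at 5.92 and 5.98 TPM against 5.58 and 5.78 TPM. In every family, the sum was higher in both *Shh*-/- pools than in both WT pools, an order that 38.0% of all tested genes showed singly. In whole-tissue RNA, a change in the share of a cell type and a change in RNA per cell cannot be told apart. The ratio of summed *Mmp* to summed *Timp* RNA overlapped between the genotypes, with 2.59 and 2.27 in the *Shh*-/- pools and 2.30 and 2.42 in WT.

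None of the 31 tested genes passed an adjusted p of 0.05 in limma, a threshold that 0.725% of the 16972 tested genes passed (0.56% higher and 0.165% lower in *Shh*-/-), so none of the differences between genotypes given for a member was called. At an adjusted p under 0.10 there were 9 genes higher in *Shh*-/- (29.0% of the 31, against 3.95% of all tested genes) and 0 lower (against 1.11%), in all 29.0% against 5.06%. After correction for GC content and transcript length, 2 members had an adjusted p under 0.10. The share of all genes under 0.10 was not counted in that fit, where 73 of 16887 genes passed 0.05, beside 123 of 16972 before. With an unadjusted p under 0.05 there were 14 higher, 45.2% against 17.5% of all tested genes, and 3 lower, 9.68% against 7.22%. Both *Shh*-/- pools lay above both WT pools for 18 genes, 58.1% against 38.0%, and below both for 5, 16.1% against 22.7%. These shares are a description of the list, and 5 of the tested genes (*Mmp9*, *Mmp24*, *Adamts5*, *Adamtsl2* and *Adamtsl1*) reached a mean of 1 TPM in only one genotype, so that their passing the filter was tied to a difference. The median log2 difference was 0.52 for *Mmp*, 0.37 for *Timp*, 0.20 for *Adamts* and −0.12 for *Adamtsl* genes, beside 0.08 for all tested genes. Over all 31 it was 0.24. With GC and length corrected for, it was 0.10 over the 31 and 0.08 over all tested genes. The lowest adjusted p, 0.0697, was that of *Mmp9*.

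**Figure D3:**
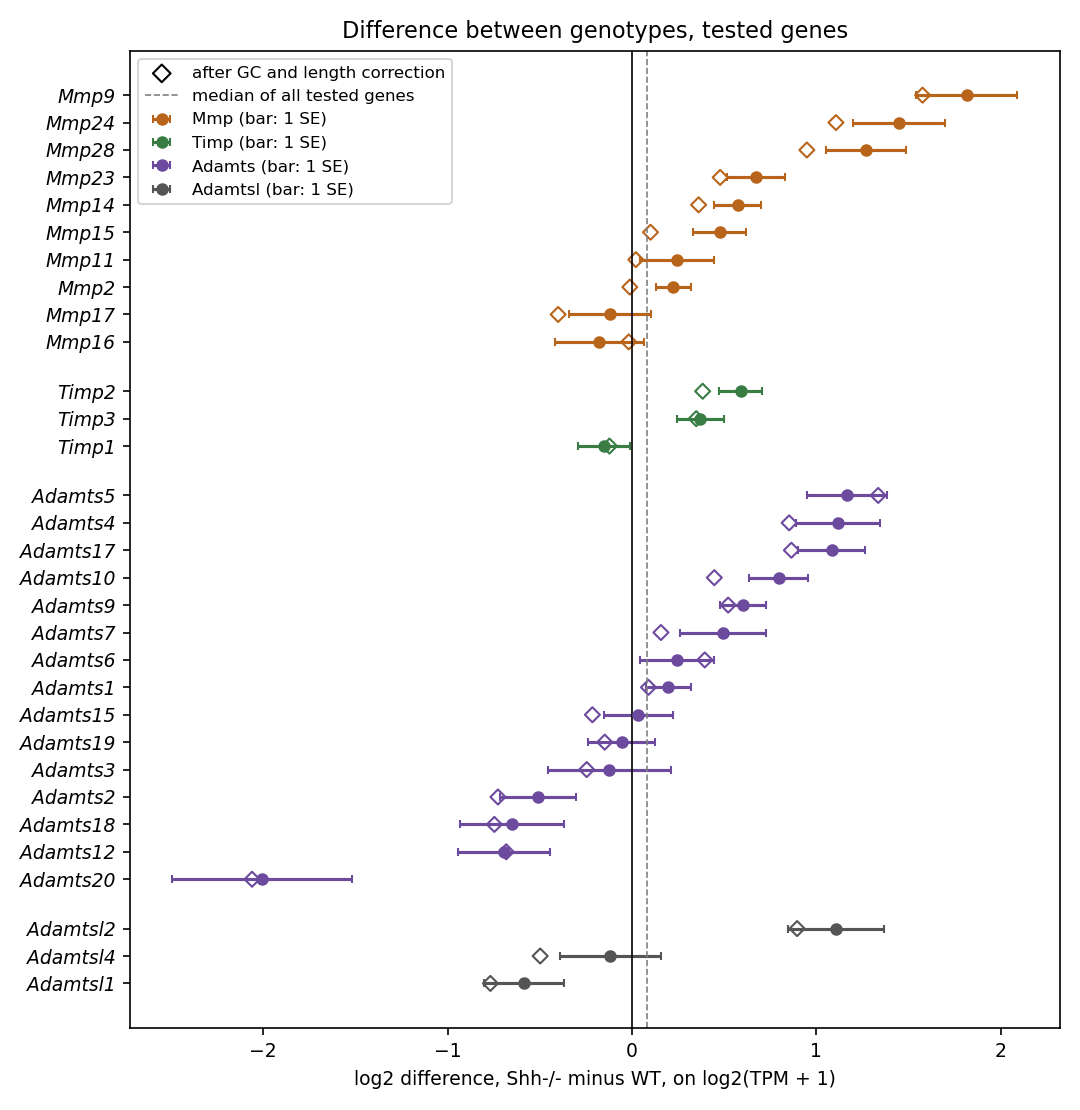
Log2 difference between *Shh*-/- and WT on the log2(TPM + 1) scale for each tested gene, by family, with bars of 1 standard error from limma; open diamonds give the difference after each library was corrected for GC content and transcript length. *Mmp9* has the largest positive value (1.81) and *Adamts20* the largest negative one (−2.0), and *Mmp2*, *Mmp11*, *Mmp15* and *Adamts7* lose most of their difference after the correction.

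Among the membrane-bound proteases and their partners, *Mmp14* (chromosome 14, 54431612 to 54441265), which encodes the collagenase at the cell surface that activates proMMP2, was at 98.3 and 81.9 TPM in *Shh*-/- against 61.1 and 58.8 TPM in WT. Its groups did not overlap and its log2 difference was 0.57 (standard error 0.13, limma adjusted p = 0.106). *Mmp2* (chromosome 8, 92827328 to 92853417), whose product is a gelatinase of type IV collagen, was at 108.3 and 105.8 TPM against 89.4 and 93.6 TPM. This was a log2 difference of 0.22 (standard error 0.09, adjusted p = 0.224), and it was −0.012 once GC content and transcript length were corrected for, so its direction depended on that step. *Timp2* (chromosome 11, 118301069 to 118355740), the inhibitor that links these enzymes, had 57.3 and 51.4 TPM against 36.5 and 35.0 TPM, a log2 difference of 0.59 (standard error 0.12, adjusted p = 0.0948). Within a library, the ratio of *Mmp14* to *Timp2* was alike in all pools, with 1.71 and 1.59 in *Shh*-/- and 1.68 in each WT pool. The ratio of *Mmp2* to *Timp2* was lower in the mutants, at 1.89 and 2.06, than in WT, at 2.45 and 2.67. That of *Mmp2* to *Mmp14* was also lower, with 1.10 and 1.29 against 1.46 and 1.59. These ratios were not tested.

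**Figure D4:**
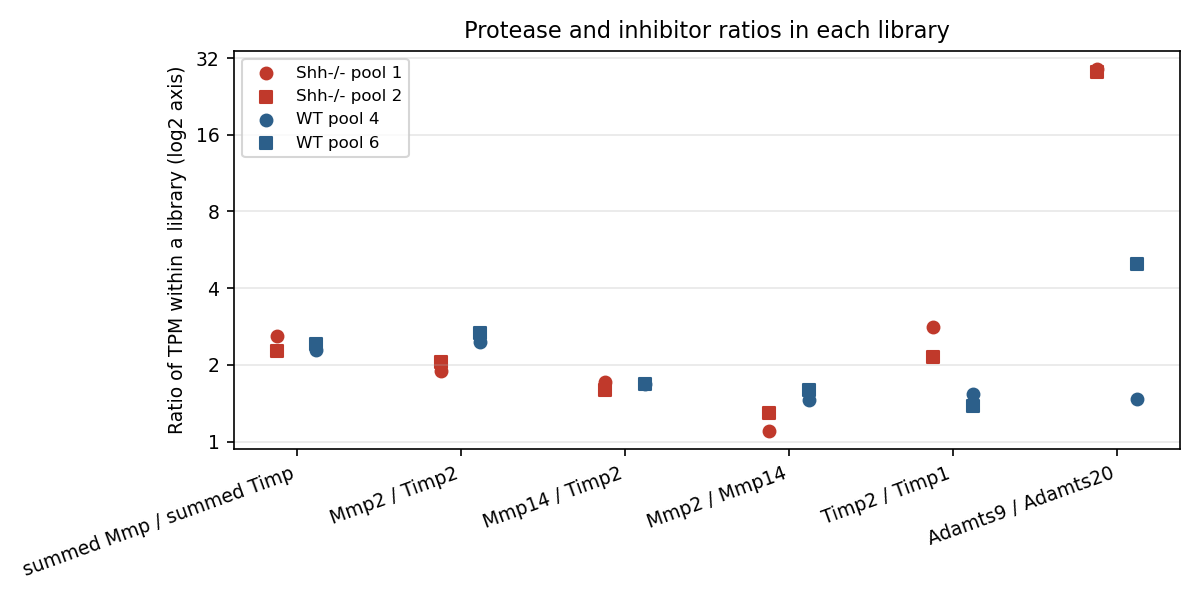
Ratio of TPM within each library, on a log2 axis, for the sum of *Mmp* over the sum of *Timp* genes and for 5 pairs of genes, in *Shh*-/- (red) and WT (blue) pools. *Mmp14* to *Timp2* was between 1.59 and 1.71 in all 4 libraries, while *Adamts9* to *Adamts20* was 28.3 and 29.0 in *Shh*-/- and 1.47 and 4.99 in WT.

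The other inhibitors differed from each other. *Timp3*, which encodes the inhibitor bound to the matrix, was at 40.4 and 44.5 TPM in *Shh*-/- and 34.6 and 30.7 TPM in WT (log2 difference 0.37, standard error 0.13, adjusted p = 0.172). *Timp1*, an X-linked gene for a soluble inhibitor, was at 20.3 and 23.9 TPM against 23.7 and 25.4 TPM, with overlapping pools (log2 difference −0.15, standard error 0.14, adjusted p = 0.522). The ratio of *Timp2* to *Timp1* was higher in the mutants, 2.83 and 2.15 against 1.54 and 1.38. *Timp4* did not exceed 0.083 TPM.

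The largest differences among the metalloproteinases were in genes of low level. *Mmp9* (chromosome 2, 164940780 to 164955850), which encodes gelatinase B, was at 4.08 and 2.82 TPM in *Shh*-/- against 0.433 and 0.0945 TPM in WT, or about 114 and 186 reads against 26 and 6. Every *Shh*-/- value was more than 6 times the higher WT value, and the log2 difference was 1.81 (standard error 0.28, adjusted p = 0.0697). *Mmp28* (chromosome 11, 83440768 to 83463071), the gene of epilysin, was at 3.95 and 5.21 TPM against 1.3 TPM in each WT pool (log2 difference 1.27, standard error 0.22, adjusted p = 0.0784). Of its exonic bases, 12.0% are shared with *1700020L24Rik* on the opposite strand, which was itself at 6.62 and 6.02 TPM against 1.10 and 0.667 TPM. *Mmp24* (chromosome 2, 155775342 to 155818366), the gene of a membrane-type protease best known from the nervous system, was at 1.69 and 2.21 TPM against 0.160 TPM in one WT pool and a listed 0 in the other (log2 difference 1.45, standard error 0.25, adjusted p = 0.0796). It shares 13.6% of its exonic bases with *BC029722* on the opposite strand, which was at 13.0 and 13.2 TPM against 9.32 and 7.95 TPM. The library kit keeps strand, but the strand setting of the counting is not given in the sources used here.

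*Mmp23* and *Mmp15*, further membrane proteases of moderate level, were higher in both *Shh*-/- pools than in either WT pool. *Mmp23* was at 10.2 and 9.23 TPM in *Shh*-/- and 5.81 and 5.63 TPM in WT (log2 difference 0.67, standard error 0.16, adjusted p = 0.114). *Mmp15*, which encodes a transmembrane relative of MMP14, was at 22.9 and 24.1 TPM against 18.01 and 15.3 TPM (log2 difference 0.48, standard error 0.14, adjusted p = 0.149), which GC and length correction reduced to 0.10. *Mmp11*, the gene of stromelysin-3, was at 44.2 and 30.7 TPM against 29.5 and 32.6 TPM, with overlapping pools, and its log2 difference of 0.24 turned to −0.014 without the first *Shh*-/- pool and was 0.021 with GC and length corrected for. *Mmp16* and *Mmp17*, the remaining tested membrane-type members, had log2 differences of −0.18 and −0.12 with overlapping pools. Below the filter, *Mmp25* was at 0.573 and 0.596 TPM against 0.416 and 0.329 TPM, *Mmp19* at 0.257 and 0.119 TPM against 0.386 and 0.471 TPM, and *Mmp21* at no more than 0.0565 TPM.

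Among the proteases that cut versican and aggrecan, *Adamts5* (chromosome 16, 85858170 to 85901125), a main aggrecan-cutting enzyme, was at 2.89 and 2.44 TPM in *Shh*-/- and 0.596 and 0.662 TPM in WT (log2 difference 1.17, standard error 0.22, adjusted p = 0.0887). *Adamts4*, its counterpart on chromosome 1, was at 5.60 and 3.96 TPM against 1.74 and 1.54 TPM (log2 difference 1.12, standard error 0.23, adjusted p = 0.0983). *Adamts9* (chromosome 6, 92772699 to 92943492), which encodes a versican-cutting enzyme, was more abundant, at 28.7 and 29.6 TPM against 18.03 and 19.7 TPM (log2 difference 0.60, standard error 0.12, adjusted p = 0.0989). For all of these the groups did not overlap. *Adamts1*, which lies beside *Adamts5* on chromosome 16, was at 29.9 and 31.3 TPM against 27.98 and 25.3 TPM (log2 difference 0.20, adjusted p = 0.363). *Adamts15* overlapped between genotypes (log2 difference 0.04), and *Adamts8* was at 0.276 to 0.717 TPM.

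*Adamts20* (chromosome 15, 94270163 to 94465418) was the lowest of the list relative to WT. It encodes the closest relative of ADAMTS9, and loss of the mouse gene is known to give a white belt through missing melanoblasts. Its level was 0.989 and 1.05 TPM in *Shh*-/- against 12.2 and 3.95 TPM in WT, so both mutant pools were lower and alike while the WT pools differed 3-fold. The log2 difference was −2.0 with the largest standard error of the list (0.49, adjusted p = 0.118). It was −2.72 to −1.29 when each pool was left out in turn, with the smallest size without WT pool 4. The ratio of *Adamts9* to *Adamts20*, a pair chosen after values were seen, was 29.0 and 28.3 against 1.47 and 4.99. This follows from the opposite directions of these genes and is not a further result.

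Among the members linked to fibrillin microfibrils, *Adamts10* (chromosome 17, 33524204 to 33553782), whose human counterpart is mutated in Weill-Marchesani syndrome, was the most abundant *Adamts* gene, at 52.0 and 41.1 TPM in *Shh*-/- and 27.7 and 24.8 TPM in WT. Its log2 difference was 0.80 (standard error 0.16, adjusted p = 0.0957) and 0.45 with GC and length corrected for. *Adamts17* (chromosome 7, 66839735 to 67152625), linked to a related syndrome, was at 6.19 and 7.14 TPM against 2.66 and 2.56 TPM (log2 difference 1.08, standard error 0.18, adjusted p = 0.078). *Adamts6* and *Adamts19*, the nearest relatives of *Adamts10* and *Adamts17*, differed less, by 0.24 and −0.06 on the log2 scale. With GC and length corrected for, *Adamts6* was close to *Adamts10*, at 0.39 beside 0.45. *Adamts19* was then at −0.15 beside 0.86 for *Adamts17*. The ratio of *Adamts17* to *Adamts19* was 0.866 and 1.24 against 0.388 and 0.391.

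The ADAMTS-like genes differed in both directions. *Adamtsl2*, whose human counterpart is mutated in geleophysic dysplasia, was at 2.98 and 2.27 TPM against 0.452 and 0.933 TPM (log2 difference 1.11, standard error 0.26, adjusted p = 0.114). *Adamtsl1*, the gene of punctin, was at 0.816 and 0.703 TPM against 1.59 and 1.70 TPM (log2 difference −0.59, standard error 0.22, adjusted p = 0.19). *Adamtsl4*, also tied to fibrillin, was at 1.74 and 2.51 TPM against 3.00 and 1.83 TPM, and its log2 difference of −0.12 became 0.06 without the first *Shh*-/- pool and 0.13 without WT pool 4. *Adamtsl3* and *Adamtsl5* stayed below 1 TPM in every library.

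Of the enzymes that remove the N-propeptide of procollagens, *Adamts2* was at 1.23 and 1.14 TPM in *Shh*-/- and 2.15 and 2.08 TPM in WT (log2 difference −0.51, adjusted p = 0.211), while *Adamts3* overlapped (log2 difference −0.12) and *Adamts14* was at 0.787 and 0.544 TPM against 0.395 and 0.213 TPM. *Adamts7* and *Adamts12* encode proteases that cut cartilage oligomeric matrix protein. *Adamts7* was at 22.0 and 14.2 TPM against 11.9 and 12.7 TPM (log2 difference 0.49, adjusted p = 0.259), a difference of 0.20 without the first *Shh*-/- pool and 0.16 with GC and length corrected for. *Adamts12* was at 2.36 and 3.48 TPM against 4.50 and 6.17 TPM (log2 difference −0.69, standard error 0.25, adjusted p = 0.184). *Adamts18* was at 5.12 and 8.35 TPM against 9.17 and 12.9 TPM (log2 difference −0.65, adjusted p = 0.233, and −0.34 without the first *Shh*-/- pool). Its relative *Adamts16* was below the filter and was not tested. It was at 0.557 and 0.467 TPM against 0.0976 and 0.0887 TPM, or about 25 and 50 reads against 9 and 9. *Adamts13*, which trims von Willebrand factor and is known from the liver, was listed at 0 in every library.

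Other enzymes of the cell surface and matrix were examined in a list of 28 genes, of which 26 were tested. None passed an adjusted p of 0.05, 19 had a positive and 7 a negative log2 difference, and the median was 0.42, or 0.20 with GC and length corrected for. Of all 16972 tested genes, 9895 had a positive difference. The 3 genes of lowest p were *Fap*, the gene of a fibroblast serine protease, at 17.1 and 8.88 TPM against 2.13 and 2.50 TPM (log2 difference 2.01, adjusted p = 0.0736), *Adam19*, at 28.3 and 25.2 TPM against 15.5 and 13.8 TPM (0.82, adjusted p = 0.0787), and *Ctsk*, the gene of cathepsin K (1.06, adjusted p = 0.106). In the plasminogen system, *Plau* was at 11.4 and 14.2 TPM against 6.95 and 8.30 TPM (log2 difference 0.67, limma adjusted p = 0.136). Its receptor gene *Plaur* was at 1.14 and 4.14 TPM against 11.2 and 8.01 TPM (−1.66, adjusted p = 0.135), on the opposite side of WT. *Plat*, a further gene of this system, was also lower, at 41.1 and 59.5 TPM against 73.3 and 74.4 TPM (−0.57, adjusted p = 0.17). *Furin*, which activates several of the membrane-type enzymes, overlapped between genotypes (27.6 to 34.5 TPM in *Shh*-/-, 22.0 to 27.8 TPM in WT). *Bmp1*, the gene of the procollagen C-proteinase, was at 74.99 and 58.4 TPM against 42.8 and 35.96 TPM (log2 difference 0.74, adjusted p = 0.111). *Plau*, *Plaur*, *Plat*, *Furin* and *Bmp1* were singled out after their values were seen.

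Inhibitors other than the TIMPs formed a list of 10 genes, of which 9 were tested and 0 passed. Those of lowest p were *Spock1* and *Spock2*, which encode testican proteoglycans. *Spock1* was at 6.49 and 8.81 TPM in *Shh*-/- against 1.70 and 1.19 TPM in WT (log2 difference 1.82, adjusted p = 0.0595) and *Spock2* at 13.9 and 13.3 TPM against 6.97 and 7.397 TPM (0.84, adjusted p = 0.0808).

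Among 17 matrix genes whose proteins these enzymes cut, 14 were tested. Of these, 2 passed (14.3%, against 0.725% of all tested genes), both higher in *Shh*-/-: *Eln*, the elastin gene, rose from 5.76 and 5.69 TPM in WT to 18.9 and 17.2 TPM (log2 difference 1.5, adjusted p = 0.0422), and *Bgn*, the biglycan gene, rose from 21.5 and 20.9 TPM to 51.5 and 48.5 TPM (1.20, adjusted p = 0.0422). By sign, 11 of the 14 had a positive log2 difference and 3 a negative one (*Vcan*, *Dcn* and *Fbn2*). The median was 0.57, or 0.28 with GC and length corrected for. Of those that did not pass, *Col1a2* had the lowest p. It was at 237.4 and 210.4 TPM in *Shh*-/- and 124.0 and 103.5 TPM in WT (log2 difference 0.97, limma adjusted p = 0.0602). RNA of *Vcan*, the gene of versican, was at 72.8 and 47.8 TPM in *Shh*-/- and 125.1 and 179.6 TPM in WT (log2 difference −1.33, standard error 0.27, adjusted p = 0.0962). *Dcn*, the decorin gene, was at 43.6 and 65.6 TPM against 96.5 and 137.9 TPM (−1.09, adjusted p = 0.116). The fibrillin genes had differences of −0.42 for *Fbn2* (adjusted p = 0.114) and 0.46 for *Fbn1* (adjusted p = 0.211). *Acan*, the aggrecan gene, and *Comp*, the gene of the ADAMTS7 and ADAMTS12 substrate, were at most 0.109 TPM at this stage.

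The summed levels of several cell-type markers differed between the genotypes. The summed level of 12 neuron markers was 818.3 and 896.9 TPM in *Shh*-/- and 278.6 and 233.7 TPM in WT, with 11 of 12 having both mutant pools above both WT pools, as 38.0% of all tested genes did. That of 13 neural crest markers was 439.5 and 370.7 TPM against 245.8 and 205.2 TPM, 11 of 12 tested being higher by the same measure. Endothelial markers (10 genes) summed to 446.8 and 529.2 TPM against 317.4 and 299.4 TPM, with 9 of 10 higher by that measure. Striated and cardiac muscle markers (12 genes) summed to 235.4 and 365.5 TPM against 127.7 and 128.6 TPM, with 8 of 11 tested higher by that measure. By the sign of the log2 difference alone, 10 of 10 endothelial and 11 of 11 muscle markers were higher. The sum of 12 foregut epithelial markers overlapped, at 733.9 and 642.5 TPM against 693.8 and 729.5 TPM, but 6 of the 12 had both mutant pools below both WT pools (22.7% of all tested genes did) and 3 had both above. Among the 6 was *Foxa2*, at 5.34 and 9.12 TPM against 29.2 and 39.8 TPM (log2 difference −2.13, adjusted p = 0.0602). The sum of 9 erythroid markers also overlapped, at 11810 and 17910 TPM against 16190 and 18340 TPM. Mesenchymal markers (10 genes) summed to 1463 and 1399 TPM against 1086 and 1128 TPM. Both mutant pools lay above both WT pools for 6 of the 10 and below for 3, *Foxf1*, *Tbx5* and *Wnt2*. *Foxf1*, a marker of the splanchnic mesenchyme, was at 0.848 and 9.57 TPM against 72.3 and 64.6 TPM. The sum of 12 macrophage and myeloid markers overlapped, at 35.9 and 26.5 TPM against 19.9 and 26.7 TPM. Of the 9 tested, 8 had a positive log2 difference (median 0.46). Both mutant pools lay above both WT pools for 3 of them (33.3%) and below for 0. *Csf1r* was at 1.82 to 2.09 TPM in *Shh*-/- and 1.85 to 2.06 TPM in WT, *Adgre1* did not exceed 0.262 TPM, and *Aif1* was listed at 0 in WT pool 4. The part of the neuronal, crest, vascular and muscle RNA in the differences of the protease genes was not tested.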

How the data were processed

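Bulk RNA-seq of 4 libraries was analysed, 2 pools of 3 *Shh*-/- larynxes (pools 1 and 2) and 2 pools of 3 WT larynxes (pools 4 and 6), grouped by their titles. Libraries were stranded, poly(A)-selected and read from one end. HISAT2 2.1.0 (alignment, mm10) and StringTie 1.3.6 (quantification) were the authors' tools, with versions from the submitters' processing notes. The tables deposited by the authors give gene coverage, not normalized between libraries, FPKM (coverage per aligned base) and TPM (FPKM rescaled to a fixed sum). They hold no read counts, and the annotation and the strand setting are not given in the sources used here.

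Depth was taken from the commonest ratio of coverage to FPKM. A read length of 75 nt gave whole reads for 29.0 to 34.9% of low-coverage genes with 1 transcript (within 0.02 of a read), against at most 17.5% for the next best length. Approximate reads per gene are FPKM times the longest GENCODE M21 transcript times depth. TPM has no counting interval, so precision rests on the spread between 2 pools. Nothing says whether pools share litters, and p-values measure the spread between these pools.

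TPM was summed per gene ID. log2(TPM + 1) was fitted with limma 3.58.1 in R 4.3.3 (lmFit, eBayes with a mean-variance trend) for the 16972 genes averaging 1 TPM or more, without covariates, and p-values were Benjamini-Hochberg adjusted over all of them at 0.05. The methods name no test. The code was tested on simulated data. The values of 1 gene of the inhibitor list are not reported here. The members, gene lists and tests were chosen with earlier results of these data known. Values per pool are given for members with an unadjusted p under 0.05, the *Timp* genes and the 3 most abundant members of each other family, and for others where a role called for it. Motifs, gene ratios and printed promoters were chosen after values were seen. The GC and length correction regressed each library on natural splines (5 degrees of freedom each) of the GC content and length of the longest transcript, for the 16887 tested genes with both. A fit to protein-coding genes alone was added after the data were seen.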

Additional observations from a re-analysis of the deposited data

How the results depend on the processing

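No tested member passed an adjusted p of 0.05 under any of the 13 other fits, and the lowest adjusted p of a member ran from 0.0559 (13133 protein-coding genes, added after the data were seen) to 0.19 (without the first *Shh*-/- pool). At a threshold of 0.10 in place of 0.05 the number called higher was 9 and the number called lower stayed 0. Members under 0.10 in either direction numbered 13 in the fit to protein-coding genes, 8 with FPKM and 6 without the mean-variance trend. There were 4 each with 0.1 added to TPM, quantile normalization or median centring, and 2 after the GC and length correction. Without a filter there were 0, and with a mean of at least 5 TPM there were 3 of 16 tested. The share of all genes under 0.10 was not counted in these fits, so a change in members alone cannot be told from a change in all genes. At 0.05, calls over all genes were 189 for protein-coding genes, 120 with FPKM and 117 without the trend. They were 69 with 0.1 added to TPM, 117 with quantile normalization and 127 with median centring. After the GC and length correction there were 73, and with a mean of at least 5 TPM there were 82. Over all genes the 123 calls became 0 without a filter on TPM (28524 genes tested, 5011 with an unadjusted p under 0.05), 0 without either *Shh*-/- pool or without WT pool 4, and 16 without WT pool 6, where the lone remaining pool of a genotype was assumed to vary like the other. Median centring moved the median difference of all genes from 0.08 to −0.05, a shift that applies to every value above. The *Mmp* median of 0.52 became 0.22 without a filter and 0.23 after the GC and length correction. The *Timp* median of 0.37 became 0.20 without a filter and 0.24 after median centring. The *Adamts* median of 0.20 became 0.0788 with quantile normalization, 0.0681 with median centring and 0.0895 after the GC and length correction, and was 0.13 to 0.20 with 1 pool left out. The *Adamtsl* median of −0.12, over 3 genes, became −0.50 after the GC and length correction and was −0.37 to 0.13 with 1 pool left out. Of 22 members with a value in each pool by rule, 19 had one direction throughout. *Mmp2* reversed to −0.0115 after the GC and length correction, *Mmp11* to −0.0137 without the first *Shh*-/- pool (its highest with 1 pool left out was 0.498), and *Adamtsl4* to 0.06 and 0.13 without that pool or without WT pool 4. The cause was not tested. No paired analysis was possible because the pools of the genotypes share no replicate numbers. With 2 pools a genotype, and 18300000 reads in the shallowest library, members under 1 TPM could not be compared.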
